A study of Mus musculus with 12 samples.

Results

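Aldolases and the enzymes of lower glycolysis were followed at the RNA level in mouse CD8+ T cells through 8 genes, Aldoa, Aldoc, Tpi1, Gapdh, Pgk1, Pgam1, Eno1 and Pkm. They were taken by gene symbol from a table of 13780 genes, and where a symbol stood on more than 1 row, the row with the highest total count was kept. The cells came from spleens of C57BL/6J mice aged 8 to 12 weeks and were purified by positive selection on magnetic beads, then sequenced as 12 bulk RNA libraries. Naïve cells were frozen directly after isolation without treatment (n = 4 libraries from 4 donors). Activated cells were kept for 72 h with beads carrying antibodies to CD3 and CD28 and with IL-2 at 10 U/ml, in plain media (n = 4) or in media with 40 mM sodium lactate (n = 4). The control for lactate was plain media, so added sodium and osmolality changed together with the lactate anion. Activated cells came from 5 donors, if a mouse number that the labels repeat in the low and high library numbers (below) stands for different mice. Of these donors 3 are in both groups (media 1 with lactate 1, media 3 with lactate 2, and media 4 with lactate 4). Total counts were 16439750 to 18601223 in naïve, 15842423 to 20922872 in media and 14726904 to 21478137 in lactate libraries. The library numbers in the labels fall into a low range of 1 to 9 (naïve 1 to 3, media 1 to 3, lactate 1 and 2) and a high range of 16 to 26 (naïve 4, media 4, lactate 3 and 4), and differences were also computed within each range.

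The CD8 label was checked against marker genes. Cd8a was at 867 ± 352 CPM in naïve, 916 ± 106 in media and 824 ± 72.9 in lactate libraries (SD, n = 4 each), where CPM is counts-per-million scaled by TMM factors. The other CD8 T cell markers were not all level. In media against naïve, Cd8b1 was lower (log2 fold change −0.93, adjusted p = 0.00287 by edgeR with Benjamini-Hochberg adjustment; −1.18 within low and 0.14 within high library numbers), and Cd3d and Cd3e were higher (0.56 and 0.81). In lactate against media, Cd3d, Cd3e and Cd3g were lower (−0.74, −0.91 and −0.80) and Cd2 higher (0.51), and none of the 7 passed in lactate against naïve, where Cd8b1 and Cd2 had an unadjusted p under 0.05 in the edgeR test. Naïve libraries also held RNA of other cell types. The summed level of the 4 B cell markers was 663, 954, 392 and 797 CPM in naïve replicates 1 to 4, and it was 8.14 to 14.7 CPM in media and 5.23 to 7.44 CPM in lactate libraries. The 6 myeloid markers summed to 1889.5, 1356, 598 and 542 CPM in the naïve replicates, led by Csf1r at a mean of 497 CPM, against 11.9 to 18.7 CPM in media and 5.23 to 10.6 CPM in lactate libraries. Naïve replicate 2 stood out for the 4 listed red cell markers, which summed to 933, 3369, 378 and 84.1 CPM in the naïve replicates, led by Hba-a1 at a mean of 465 CPM, with at most 0.231 CPM in media and 1.90 CPM in lactate libraries. The 2 NK cell markers summed to 3.13 to 8.00 CPM and the 2 CD4 T cell markers to 12.1 to 30.5 CPM in naïve libraries, and neither list passed 1.70 CPM in any activated library. Alas2 and Ncr1 had 0 counts in all 4 media libraries. Naïve replicate 4 had the lowest sum of the 7 CD8 T cell markers, 2263 CPM against 3502 to 4673 CPM in the other naïve libraries. The part of these cells in the differences from naïve libraries given below was not tested, and in bulk RNA fewer cells of a type and less RNA per cell cannot be told apart.

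Aldolase splits the bisphosphate sugar made in upper glycolysis into a pair of triose phosphates, and the enzymes below it turn these into pyruvate while making ATP and NADH. Resting T cells use little glucose, and activation is known to raise glycolysis along with growth and division. Pyruvate can leave the pathway as lactate, so sodium lactate adds the end product of the pathway from outside.

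All 8 genes rose on activation, and with lactate Aldoc was lower than without. Aldoa was lower too, in the main fit and in all 24 alternatives, but whether it was called depended on the fit. In media libraries against naïve libraries, 8 of 8 genes passed an adjusted p of 0.01 (edgeR quasi-likelihood test, Benjamini-Hochberg over 13767 genes) and all were higher, with adjusted p from 9.28e-10 to 2.99e-08. Of all genes tested 57.5% were called, 28.5% higher and 29% lower. All 4 media libraries lay above all 4 naïve libraries for each of the 8, as for 30.7% of all genes. Their median log2 fold change was 3.83, against −0.03 over all genes tested. An increase of at least 10-fold was found in 7 of the 8, and in 4.98% of all genes. In lactate libraries against the same naïve libraries, 8 of 8 were again called higher (33% of all genes, with 32% called lower and 65% in either direction), without overlap of libraries (35% of all genes were higher in this way), each by at least 10-fold (4.63% of all genes), with a median log2 fold change of 3.82 against 0.01 over all genes. Within the low library numbers the differences of media from naïve ran from 3.12 (Eno1) to 6.78 (Aldoc) on the log2 scale and within the high numbers from 3.54 (Pkm) to 8.59 (Aldoc), and those of lactate from 3.18 (Pkm) to 4.68 (Aldoc) and from 3.51 (Aldoa) to 6.36 (Aldoc). The naïve libraries are shared by these comparisons, so their values only stand side by side. In lactate against media, 2 of 8 genes passed the threshold, Aldoa and Aldoc, both lower, where 25.1% of all genes were called in either direction and 11.1% were called lower. With the donor as a replicate block, which uses the 3 donors in both groups and draws nothing from naïve libraries, only Aldoc of the 8 passed. There 26.3% of all genes were called. The members were thus called no more often than other genes in either fit. The median log2 fold change of the 8 genes was −0.06, against −0.00 over all genes.

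**Figure D1:**
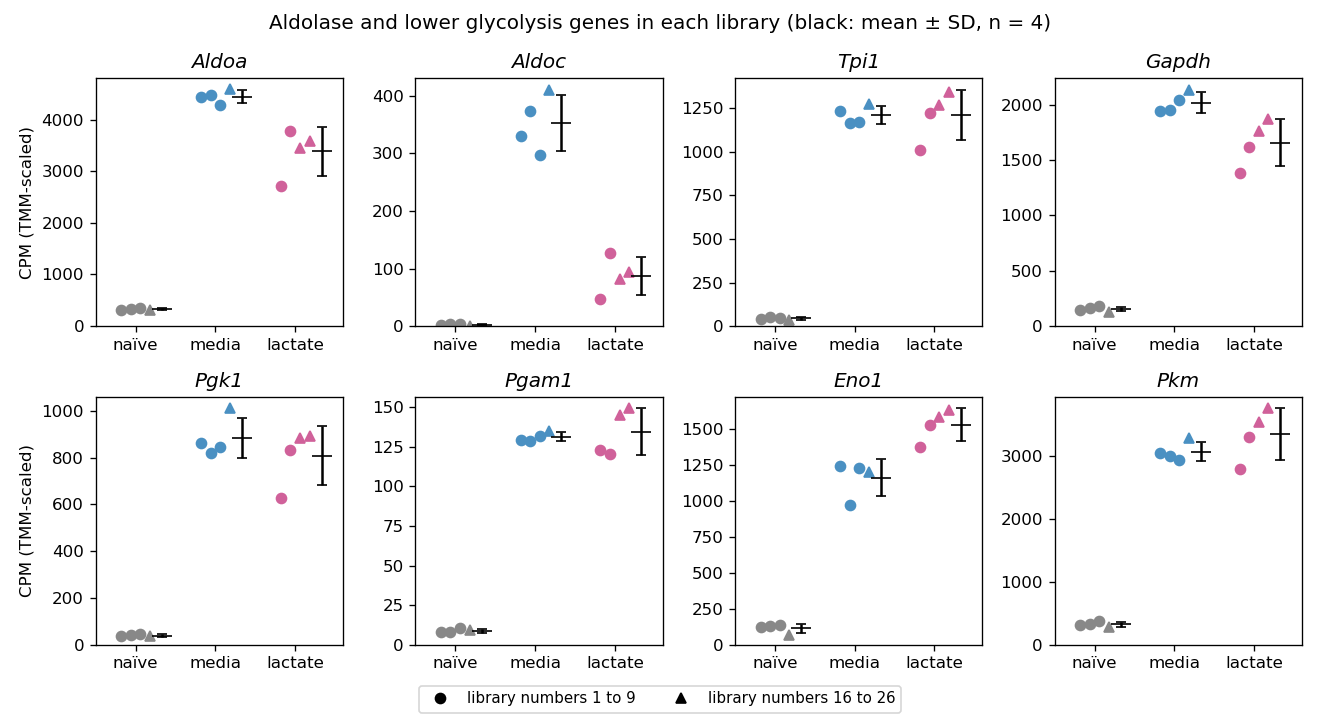
Level of each of the 8 genes in CPM (TMM-scaled; y axis, from 0) in the 12 libraries by group (x axis), with circles for library numbers 1 to 9, triangles for 16 to 26, and black bars for the mean ± SD (n = 4). All activated libraries lie above all naïve libraries for each gene, and the lactate libraries lie below all media libraries for Aldoa (2707 to 3779 against 4278 to 4584 CPM) and Aldoc (47.2 to 127 against 298 to 409.9 CPM).

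Aldoc showed the largest difference between lactate and media of the 8 genes, and that of Aldoa was about as large as the opposite one of Eno1. Aldoa, the broadly expressed aldolase A (ENSMUSG00000030695, chr7:126795234-126800751, minus strand, GRCm38 as all positions here), was at 313, 333, 349 and 309 CPM in naïve replicates 1 to 4. It was at 4436, 4479, 4278 and 4584 CPM in media replicates 1 to 4 and at 2707, 3779, 3459 and 3586 CPM in lactate replicates 1 to 4. The groups did not overlap, media was highest, and lactate replicate 1 was the lowest activated library. Aldoa rose 13.6-fold from naïve to media (log2 fold change 3.77, SE 0.11) and was 1.31-fold lower in lactate than in media (log2 fold change −0.39, SE 0.10, adjusted p = 0.00862 by edgeR with Benjamini-Hochberg adjustment). The exact two-sided permutation test of the 4 against 4 libraries gave p = 0.0286, the smallest value that its 70 arrangements allow. Within the low and high library numbers the difference was −0.46 and −0.38 on the log2 scale. This call was close to the threshold. It was lost with the donor as a replicate block (log2 fold change −0.41, adjusted p = 0.0277) and in 13 of 24 alternatives in all, while the direction held in each of the 24, with adjusted p from 0.000139 to 0.0277. Among these were the edgeR fits without naïve replicate 1 or 2, without media replicate 1, 2, 3 or 4, and without lactate replicate 1, 3 or 4, with adjusted p from 0.0114 to 0.022.

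Aldoc, the aldolase C known mainly from brain (ENSMUSG00000017390, chr11:78322968-78327781, plus strand), was near the lower end of detection in naïve cells, at 2.25, 3.12, 3.50 and 0.952 CPM in replicates 1 to 4, from 17 to 65 counts. Media replicates 1 to 4 held 331, 373, 298 and 409.9 CPM and lactate replicates 1 to 4 held 47.2, 127, 81.8 and 93.3 CPM. No library of any group overlapped with another group, and the highest lactate library, replicate 2, stayed under the lowest media library, replicate 3. Activation in media raised Aldoc 143-fold (log2 fold change 7.16, SE 0.40), the largest change of the 8 genes. The difference was 6.78 on the log2 scale within the low and 8.59 within the high library numbers, where naïve replicate 4, the lowest library, is the only naïve sample. Under lactate the rise over naïve was 35.4-fold (log2 fold change 5.15, SE 0.37). Lactate libraries were thus 4.04-fold below media libraries (log2 fold change −2.02, SE 0.31, adjusted p = 0.000368 by edgeR with Benjamini-Hochberg adjustment), lower in 4 of 4 libraries. Of all genes tested, 9.06% were called in this comparison with a change of 2-fold or more. The difference was −2.10 within low and −2.23 within high library numbers, and it kept its call in each of 24 alternatives, with adjusted p from 1.65e-09 to 0.00216.

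The balance of the aldolases moved with these changes. Per length, as TPM (counts divided by the gene lengths of the table and scaled to the same total in every library), Aldoc made up 0.639, 0.831, 0.888 and 0.274% of the summed Aldoa and Aldoc level in naïve replicates 1 to 4. The share was 6.23, 6.92, 5.85 and 7.39% in media replicates 1 to 4 and 1.53, 2.91, 2.07 and 2.27% in lactate replicates 1 to 4. Every media library had a higher Aldoc share than every lactate library, and every lactate library a higher share than every naïve library. The means were 0.658 ± 0.277%, 6.60 ± 0.687% and 2.19 ± 0.568% (SD, n = 4 each), and Aldoa was the main aldolase in all 12 libraries. With the length of the principal transcript in place of the table's length, an alternative chosen after seeing the data, the shares were lower. They were 0.411% in naïve, 4.22% in media and 1.38% in lactate libraries. Aldoart1 and Aldoart2, retrogenes known from testis, were at 6.42 ± 1.49 and 2.71 ± 0.359 CPM in media and at 4.62 ± 0.53 and 1.59 ± 0.412 CPM in lactate libraries (SD, n = 4). Their log2 fold changes for lactate against media were −0.47 and −0.77, with adjusted p of 0.105 and 0.0624 (edgeR, Benjamini-Hochberg), so neither passed. Of the 71-base windows of Aldoart1, 1.57% occur unchanged in Aldoa transcripts, so its low counts are uncertain beside the far higher Aldoa.

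Tpi1, triose phosphate isomerase, which interconverts the aldolase products (ENSMUSG00000023456, chr6:124810586-124814296, minus strand), was at 41.3, 51.9, 49.5 and 34.9 CPM in naïve replicates 1 to 4. Media replicates 1 to 4 held 1233, 1166, 1172 and 1271 CPM, and lactate replicates 1 to 4 held 1007, 1219.8, 1267 and 1345 CPM. The activated groups overlapped, with the lowest and the highest activated library both in the lactate group. The rise from naïve was 27.3-fold in media and 27.2-fold in lactate libraries (log2 fold change 4.77, SE 0.15, in both). Against media, the log2 fold change under lactate was −0.00 (SE 0.13, adjusted p = 1 by edgeR), −0.10 within low and 0.04 within high library numbers, and its sign changed in 4 of 24 alternatives.

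Gapdh, which makes NADH in the oxidation of glyceraldehyde phosphate and often serves as a reference gene (ENSMUSG00000057666, chr6:125161715-125166467, minus strand), was at 149.9, 161, 181 and 129 CPM in naïve replicates 1 to 4. It was at 1947, 1949, 2046 and 2138 CPM in media replicates 1 to 4 and at 1386, 1617, 1762 and 1869.6 CPM in lactate replicates 1 to 4. All lactate libraries lay below all media libraries, while the model's test did not pass (log2 fold change −0.28, SE 0.12, adjusted p = 0.0724 by edgeR with Benjamini-Hochberg adjustment, exact permutation p = 0.0286). The difference was −0.40 within low and −0.24 within high library numbers. Gapdh, Aldoa and Aldoc were the 3 members whose lactate libraries were all lower, and Eno1 the only member whose lactate libraries were all higher, where 44.7% of all genes had groups that did not overlap, 23.2% higher and 21.5% lower. From naïve to media Gapdh rose 13.0-fold (log2 fold change 3.70, SE 0.13), so as a reference gene it would not have been level across these groups.

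Gapdh is also the member with the most near-identical copies. Of the 71-base windows of its principal transcript, the read length of the study, 80.7% occur unchanged in transcripts of 128 other genes, and such reads cannot be placed uniquely. Of these genes 100 had a row of their own in the table. Their summed level was 46.6 ± 5.47 CPM in naïve, 569 ± 33.7 CPM in media and 484 ± 54.9 CPM in lactate libraries (SD, n = 4 each). That was 30.1 ± 1.15, 28.2 ± 1.65 and 29.2 ± 0.477% of the Gapdh level in the same libraries. The copies thus kept a nearly level ratio to Gapdh in every group. The level of Gapdh against other genes is uncertain for this reason.

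Pgk1, phosphoglycerate kinase, the enzyme of the earlier ATP-making step (ENSMUSG00000062070, chrX:106187100-106203699, plus strand), was at 36.6, 40.4, 45.3 and 35.3 CPM in naïve replicates 1 to 4. Media replicates 1 to 4 held 864, 818, 843 and 1009.9 CPM and lactate replicates 1 to 4 held 626, 834, 881 and 893 CPM. Lactate replicate 1 was the lowest and media replicate 4 the highest activated library, and the remaining activated libraries overlapped. Pgk1 rose 22.4-fold in media and 20.5-fold in lactate libraries over naïve (log2 fold changes 4.49 and 4.36, SE 0.15 in both). Lactate against media gave a log2 fold change of −0.13 (SE 0.13, adjusted p = 0.456 by edgeR), −0.22 within low and −0.19 within high library numbers. In each donor present in both groups the lactate library was lower, and with the donor block the log2 fold change was −0.219 (adjusted p = 0.147 by edgeR), again not called. Windows shared with other genes made up 67.6% of its transcript.

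Pgam1, the phosphoglycerate mutase of most tissues (ENSMUSG00000011752, chr19:41911923-41918660, plus strand), was at 8.00, 7.87, 10.7 and 9.02 CPM in naïve replicates 1 to 4. It was at 129.7, 129, 132 and 135 CPM in media replicates 1 to 4 and at 123, 120.5, 145 and 149 CPM in lactate replicates 1 to 4. The media libraries were close together and lay inside the wider range of the lactate libraries, of which replicates 1 and 2 were below and replicates 3 and 4 above all media libraries. This follows the library numbers, since the difference was −0.10 on the log2 scale within low and 0.12 within high numbers. Pooled, it was 0.03 (SE 0.11, adjusted p = 0.841 by edgeR), with its sign changed in 7 of 24 alternatives. The rise over naïve was 14.7-fold in media and 15.1-fold in lactate libraries (log2 fold changes 3.88 and 3.92, SE 0.12 in both). Of its windows 40.8% were shared, most with a pseudogene, Pgam1-ps2.

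Related mutases behaved in other ways. Bpgm, which makes the bisphosphoglycerate that regulates haemoglobin in red cells, was lower in media than in naïve libraries (log2 fold change −2.46, SE 0.51, adjusted p = 0.000836 by edgeR with Benjamini-Hochberg adjustment). Its naïve replicates 1 to 4 held 57.8, 176, 36.0 and 21.4 CPM, in the same order as the red cell markers given above, and media held 11.5 to 15.4 and lactate 21.3 to 26.4 CPM. The part of red cells in this difference was not tested. The difference was −2.51 within low and −0.47 within high library numbers, where naïve replicate 4 is the only naïve library. Pgam5, a mitochondrial phosphatase of the mutase family, was the only one of the 7 listed relatives called in lactate against media (log2 fold change 0.50, SE 0.10, adjusted p = 0.00237 by edgeR with Benjamini-Hochberg adjustment), at 46.5 ± 5.16 CPM in media and 65.6 ± 3.31 CPM in lactate libraries (SD, n = 4). Exons of Gm26718 on the opposite strand cover 58.1% of its exons, and whether reads were counted by strand is not given in the sources used here, so these counts are uncertain. With the donor block Pgam5 missed the threshold, with a log2 fold change of 0.42 (adjusted p = 0.0125 by edgeR). Bpgm passed it, with a log2 fold change of 0.75 (adjusted p = 0.000995 by edgeR) against 0.84 (adjusted p = 0.199) in the fit of 3 groups. The fit of 3 groups also holds the naïve libraries, so the block is not the only difference between these fits. The red cell markers Hba-a1 and Hba-a2 passed with the donor block as well, both higher in lactate than in media (2.80 and 3.46, adjusted p = 0.00773 and 0.00804 by edgeR), at the low levels given above, and their part in the Bpgm difference was not tested. Gapdhs, Pgk2, Pgam2, Eno4 and Pklr were not listed.

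Eno1, enolase 1, which forms phosphoenolpyruvate (ENSMUSG00000063524, chr4:150236721-150248879, plus strand), was at 125, 132, 138 and 68.9 CPM in naïve replicates 1 to 4. Media replicates 1 to 4 held 1243, 974, 1231.5 and 1203 CPM and lactate replicates 1 to 4 held 1375, 1530.2, 1588 and 1636 CPM. Every lactate library was above every media library, against the direction of Aldoa, Aldoc and Gapdh, and media replicate 2 and naïve replicate 4 were low in their groups. The log2 fold change of lactate against media was 0.40 (SE 0.18, adjusted p = 0.0967 by edgeR with Benjamini-Hochberg adjustment, exact permutation p = 0.0286), 0.34 within low and 0.42 within high library numbers. The model did not call it, but without naïve replicate 4 it did (adjusted p = 0.00435), as it did with only the media and lactate libraries in the fit (adjusted p = 0.00746), within a range over 24 alternatives of 0.00435 to 0.239. Over naïve, Eno1 rose 10.0-fold in media and 13.2-fold in lactate libraries (log2 fold changes 3.33 and 3.73, SE 0.20 in both), by 3.12 in media within low and 4.12 within high library numbers, where naïve replicate 4 stands alone.

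Other enolases were lower than Eno1 per length. Eno3, the muscle form, made up 34.0 ± 2.74% of the summed enolase TPM in naïve, 17.9 ± 1.41% in media and 16.6 ± 2.18% in lactate libraries (SD, n = 4), and Eno2, the neuronal form, 1.66 ± 1.51, 2.73 ± 0.734 and 1.28 ± 0.404%. The naïve mean of Eno2 rests on naïve replicate 4, at 3.86%, with 1.31, 0.454 and 1.00% in naïve replicates 1 to 3, so naïve and lactate libraries are not ordered by it. With principal transcript lengths, chosen after seeing the data, the shares were 18.0, 8.46 and 7.75% for Eno3 and 1.33, 1.95 and 0.903% for Eno2. Both rose on activation in media, with log2 fold changes of 2.11 (SE 0.18) and 4.00 (SE 0.38) and adjusted p of 7.16e-07 and 1.64e-06 (edgeR, Benjamini-Hochberg). For Eno2 the difference was 4.57 within low and 2.59 within high library numbers, and for Eno3 1.90 and 2.81. In lactate against media they gave 0.23 (adjusted p = 0.318 by edgeR) and −0.73 (adjusted p = 0.0987), with Eno2 at −0.85 within low and −0.28 within high library numbers. Eno1b, a near copy of Eno1, stayed at or under 1.69 CPM in every library (lactate against media 0.77, adjusted p = 0.109 by edgeR). Windows of the Eno1 transcript are shared with other genes for 66.5% of their number, most with Eno1b, so the level of Eno1 is uncertain too.

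Pkm, the muscle-type pyruvate kinase gene that closes the pathway (ENSMUSG00000032294, chr9:59656368-59679375, plus strand), was at 314, 326, 369 and 283 CPM in naïve replicates 1 to 4. It was at 3049, 3006, 2936 and 3289 CPM in media replicates 1 to 4 and at 2789, 3299.5, 3535 and 3762 CPM in lactate replicates 1 to 4. The activated groups overlapped, as lactate replicate 1 lay below all media libraries and the other lactate libraries above them. The log2 fold change was 0.12 (SE 0.11, adjusted p = 0.394 by edgeR), 0.02 within low and 0.15 within high library numbers. Pkm rose 9.50-fold in media and 10.4-fold in lactate libraries over naïve (log2 fold changes 3.25 and 3.37, SE 0.12 in both). Counts per gene do not separate its splice forms. Exons of Gm49759, on the same strand, cover 15.3% of the Pkm exons, and 21.7% of the Pkm windows occur in 3 other genes. Their summed level was 29.3 ± 2.37 CPM in naïve, 197 ± 88.1 CPM in media and 110.3 ± 28.8 CPM in lactate libraries (SD, n = 4), or 9.11, 6.52 and 3.39% of Pkm. Most of this sum was Gm49759, at 176 ± 89.9 CPM in media and 88.2 ± 31.4 CPM in lactate libraries, so the level of Pkm is uncertain where their exons overlap.

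**Figure D2:**
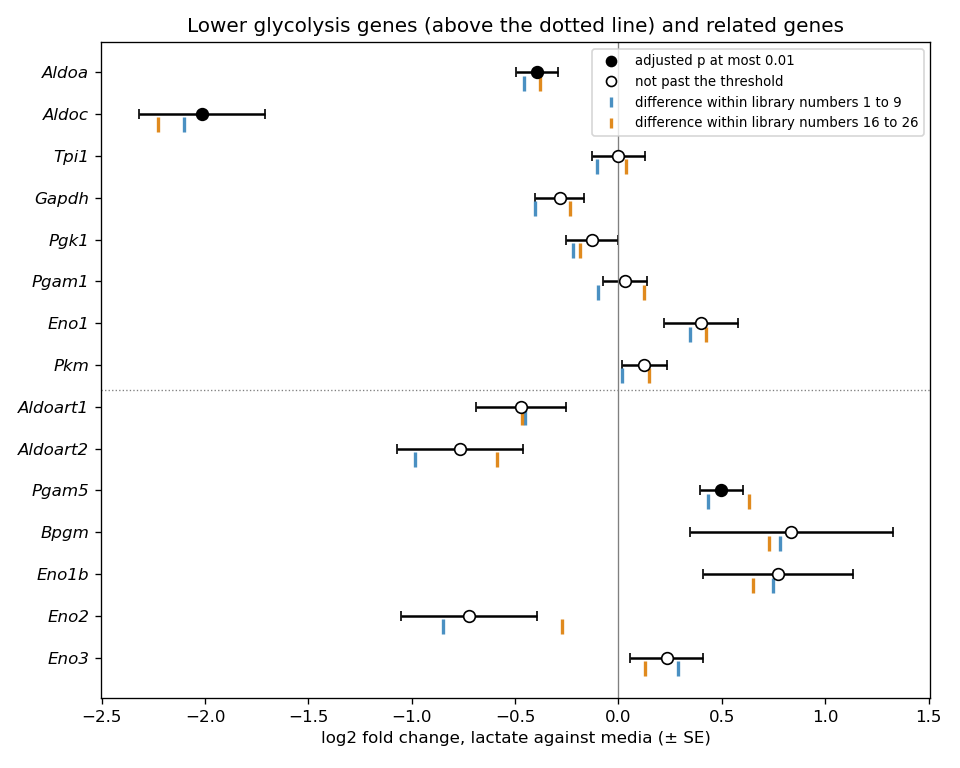
Log2 fold change of lactate against media (x axis; points with bars of ± 1 SE, n = 4 against 4, filled where the adjusted p is at most 0.01) for the 8 genes above the dotted line and their 7 listed relatives below it, with ticks for the difference within library numbers 1 to 9 (blue) and 16 to 26 (orange). Aldoc at −2.02 and Aldoa at −0.39 are the filled points among the 8. Tpi1 at −0.00 and Pgam1 at 0.03 lie nearest to 0, and their signs changed under other settings.

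Per length, the order of the genes differed between groups mainly in the lower ranks. In media libraries the mean level was 5291 TPM for Aldoa, 2126 for Pkm, 1693 for Gapdh, 1523 for Tpi1, 1362 for Pgk1, 749 for Eno1, 374 for Aldoc and 229.9 for Pgam1, and no neighbours in this order overlapped over the 4 libraries. In lactate libraries it was 3659 TPM for Aldoa, 2104 for Pkm, 1382 for Tpi1, 1262 for Gapdh, 1132 for Pgk1, 897 for Eno1, 214 for Pgam1 and 84.2 for Aldoc. There Tpi1 and Gapdh, Gapdh and Pgk1, and Pgk1 and Eno1 overlapped, although the order within each library was the same for these pairs. In naïve libraries it was 382 TPM for Aldoa, 220.1 for Pkm, 128 for Gapdh, 73.0 for Eno1, 59.8 for Pgk1, 54.8 for Tpi1, 15.3 for Pgam1 and 2.54 for Aldoc, with overlap of Eno1 with Pgk1 and of Pgk1 with Tpi1. On the TPM scale Aldoa was thus the highest of the 8 in every group, and Aldoc and Pgam1 the lowest. Among all genes of the table Aldoa ranked 11 to 16 by TPM in the media libraries, 19 to 23 in the lactate libraries and 318 to 364 in the naïve libraries. Aldoc ranked 291 to 436, 1417 to 3875 and 10882 to 12328.

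These orders depend on the length used. With principal transcript lengths, chosen after seeing the data, Gapdh at 3339 TPM passed Pkm at 2962 TPM in media libraries. Whole-gene CPM was also divided by the number of principal transcript windows found in no other gene's transcripts, likewise chosen after seeing the data. Reads were not counted within those windows, of which Gapdh has only 261 of 1350 and Aldoa 1439 of 1479. With this small divisor Gapdh led in every group, with 7740.4 CPM per kilobase of such windows in media against 3088 for Aldoa. Aldoc and Pgam1 stayed the lowest pair. Summed over the 8 genes, the level was 0.0935 ± 0.00794% of all TPM in naïve, 1.33 ± 0.0221% in media and 1.07 ± 0.101% in lactate libraries (SD, n = 4). Lactate replicate 1 had the lowest activated sum, 0.928%, and the highest lactate library, at 1.15%, was under the lowest media library, at 1.32%. As a share of counts the groups overlapped, with 0.993 to 1.29% in lactate and 1.28 to 1.41% in media libraries.

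The genes also differed in how they moved over the 12 libraries. As the root mean square difference of centred log2 CPM over the 12 libraries, Aldoa and Gapdh were the closest members, at 0.11, and Aldoc stood at least 1.14 from each of the others. The genes outside the 8 with the pattern most like Aldoc were Grin1 (0.56), a glutamate receptor subunit gene, Smtnl2 (0.56) and Mgarp (0.64), a mitochondrial protein gene, among 10305 candidates with a mean of at least 5 CPM. Like Aldoc, they were low in naïve cells and lower in lactate than in media, which comes with their choice by this pattern. Their log2 fold changes for lactate against media were −2.45, −2.30 and −1.37. Closest to Pkm were Mif (0.14), the copy Gm6560 (0.14), which shares windows with Pkm, and Ldha (0.16), the lactate dehydrogenase A gene. Closest to Eno1 were Acot7 (0.14), Slc9a5 (0.17) and Lgals1 (0.18). For Gapdh all 3, Gm10327 (0.18), Gm4335 (0.19) and Gm7293 (0.19), share windows with Gapdh itself. Aldoa had Klc3 (0.18), Gm4335 (0.19) and Ndrg2 (0.20). Tpi1 had Cep55 (0.21), Pclaf (0.23) and BC030867 (0.25), Pgk1 had Nlgn2 (0.22), Syce2 (0.22) and Sapcd2 (0.26), and Pgam1 had Fam162a (0.20), Raph1 (0.22) and Mtfr2 (0.23).

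Neighbouring steps of the pathway, with genes of its control and branches, are given for comparison. Of 18 genes tested for glucose uptake, upper glycolysis and its control, 11 were called higher and 4 lower in media against naïve. Of all genes, 28.5% were called higher there and 29% lower. The median log2 fold change of the 18 was 1.37, under that of the 8 genes. In lactate against media, 2 of the 18 were called higher, Tigar (log2 fold change 1.42), a control gene rather than a step, and Adpgk (1.03). Called lower were 3, among them Gpi1 (−0.62) and Pfkfb3 (−0.61), also a control gene. The median of the 18 was −0.33. Of 13 genes at the pyruvate and lactate end, Ldha (0.45), Pdha1 (0.31) and Mpc2 (0.47) were called higher and Pdk2 (−2.26) lower, with a median of 0.19. Of 14 genes on branches of glucose metabolism and in gluconeogenesis, 7 were called, all higher, where 13.9% of all genes were called higher. They were Gpd1l (0.57), Gpd2 (0.64), Phgdh (0.88), Psat1 (0.85), Psph (1.38), Minpp1 (0.54) and Akr1b3 (0.68), the last not at the triose or phosphoglycerate steps. The median of the 14 was 0.55. Phgdh, Psat1 and Psph draw phosphoglycerate into serine, and it is the product of the Pgk1 step, whose own gene did not pass. Of 9 regulators, 3 were called and all were lower, Arnt (−0.45), the partner of HIF-1 alpha, Egln1 (−0.58), the prolyl hydroxylase PHD2, and Vhl (−0.68). All these calls are from the same edgeR fit, in which 25.1% of all genes were called. The donor block, which also sets the naïve libraries aside, was added for these lists after seeing the data. With it, 4 of the 5 upper glycolysis calls were kept and 3 were gained, Slc2a3 (−0.72), Pfkm (−0.79) and Pfkfb4 (−0.62). Ldha, Pdha1, Mpc2 and Gpd2 lost their calls (adjusted p = 0.0186, 0.0606, 0.0138 and 0.025 by edgeR with Benjamini-Hochberg adjustment). They stayed higher with the block, with log2 fold changes of 0.382, 0.24, 0.4 and 0.487. Slc16a1 (0.42), Pdk1 (−0.61) and Myc (0.68) gained a call. For Myc the difference was 1.05 on the log2 scale within low and 0.14 within high library numbers. The calls of the other genes named in these lists were kept.

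Promoter windows were searched for the core letters that hypoxia-inducible factors bind, since several glycolytic genes are known targets. RefSeq windows of 300 bases, most of them before each annotated start (GRCm38.p6), were found for all 8 genes. The letters searched on both strands were ACGTG and GCGTG, and the E-box CACGTG, which holds ACGTG on each strand. Of 32817 windows in all, 19.6% hold ACGTG, 32.4% GCGTG and 7.15% CACGTG, 43.8% hold either of the first pair, and 8.93% hold them 3 times or more. The upstream window of Aldoc (chr11:78322823-78323122) holds 3 such sites and its downstream window 1. Gapdh (chr6:125165724-125166023) and Pgam1 (chr19:41911621-41911920) have a single window each, with 3 sites. Pgk1 holds 2 and each Eno1 window 2, Pkm holds 2 in its downstream window and 0 in the upstream one, Aldoa holds the same 1 in both of its downstream windows and 0 in the upstream one, and Tpi1 holds 0. CACGTG is in none of these windows. Genes with and without such letters rose on activation, and both genes called lower under lactate have a window with them, as have Gapdh, Pgk1, Pgam1, Eno1 and Pkm, which were not called. The sites in the upstream window of Aldoc, the gene with the largest changes, and the site in the downstream windows of Aldoa are printed with those of Pgk1 for comparison, 5′ to 3′ on the gene's strand, with the matched letters in capitals (CACGT and CACGC are ACGTG and GCGTG read on the other strand).
Aldoc at chr11:78323013-78323037: acctctgaggGCGTGgccttaccct
Aldoc at chr11:78323074-78323098: aggtatctgtCACGCccccagggag
Aldoc at chr11:78323090-78323114: cccagggagtCACGTagctctgcgg
Aldoa at chr7:126799366-126799390: tggctcgagtCACGTcctagcgggg
Pgk1 at chrX:106186940-106186964: gtcgtgcaggACGTGacaaatggaa
Pgk1 at chrX:106186959-106186983: atggaagtagCACGTctcactagtc
A match describes letters in the window and was not tested as a binding site.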

How the data were processed

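Per the labels and the study's methods, the authors demultiplexed with bcl2fastq 2.20.0.422, aligned 71-base single-end reads of stranded mRNA libraries to GRCm38 (mm10) with STAR 2.7.5b, dropped PCR duplicates, and used featureCounts to count reads with a unique position in exons. The deposited table holds raw counts per gene, with a gene length column, for 12 libraries. From these counts, edgeR 4.0.16 in R 4.3.3 was fitted by quasi-likelihood to all 12 libraries in 3 groups, with TMM scaling, a filter of 1 CPM in at least 3 libraries (13767 of 13780 genes) and Benjamini-Hochberg adjustment at 0.01. SE is the absolute log2 fold change over the root of F. The biological coefficient of variation was 23.5%. TPM were computed from the counts and the length column. Gene models are GENCODE M21, in which 13771 identifiers were found.

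The 8 genes are named in full, with every listed relative, the genes of the pathway lists that passed in lactate against media with or without the donor block, and the 3 genes nearest in pattern to each member. Some genes selected by these rules are not reported. The members and lists were chosen with earlier results of these data known. Donor pairs come from the labels, with mouse numbers read within each range of library numbers. A number found in both ranges was taken as different mice, and the study gives 4 independent donors per condition. Deviations from the group means of paired media and lactate libraries correlated over genes with r = 0.374, 0.211 and 0.553. Libraries with the same title number gave 0.374, 0.297, 0.0038 and 0.553. Pairs sharing neither donor nor title number gave −0.441 to 0.371, the highest for media 4 with lactate 3, both in the high range. Alternatives were DESeq2 1.42.0, limma 3.58.1 voom, other scalings and filters, fewer groups, blocks, a term for the library number range and each library left out. The fitting step was tested on simulated counts. The 2 platelet markers were not listed in the table. No 2 libraries had identical counts.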

Additional observations from a re-analysis of the deposited data

Results flagged for a closer look

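Of 24 sets of 4 values checked (8 genes in 3 groups), 1 held a library far from the others, and chance alone marks about 1 in 20 such sets. Eno1 in media replicate 2 was at 973.9 CPM, with the nearest media library at 1203 CPM, a gap of 0.85 of the group's range. Without that library the log2 fold change of Eno1 for lactate against media was 0.32 (adjusted p = 0.239 by edgeR with Benjamini-Hochberg adjustment), against 0.40 (adjusted p = 0.0967) with it. What set this library apart was not tested.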

How the results depend on the processing

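All 8 genes were called higher over naïve cells, in media and in lactate, under each of 23 alternatives. In lactate against media the main count was 2 genes called, and Aldoc was among those called in each of 24 alternatives. With a replicate block by donor the count was 1 (Aldoc, log2 fold change −2.05, adjusted p = 0.000761), with a replicate block by title number 1, and with upper quartile scaling 1. With a library left out it ranged from 1 to 3. Aldoa lost its call in 13 alternatives, and the donor block changed no other call of the main fit among the 8 genes. Over all genes the donor block kept 2801 of the 3451 calls and called 3614. With only the 2 groups compared the count stayed 2, with Aldoc and Eno1, and 4590 of all genes were called. The naïve donors are in no other group, so the donor block draws nothing from naïve libraries and differs from the main fit in this as well. Against the fit of only the 2 groups, the block left Eno1 uncalled (adjusted p = 0.0415 by edgeR), while Aldoa was called in neither. The cause of these differences was not tested. Signs changed for Pgam1 and Tpi1, both near 0. For Pgam1 the log2 fold change was −0.000829 with DESeq2, −0.000739 with DESeq2's size factors, −0.0116 with total counts only, −0.022 with the donor block, −0.00732 with the library number term, −0.00881 without lactate replicate 3, −0.0243 without lactate replicate 4 and 0.083 without lactate replicate 2. For Tpi1 it was 0.0105 with only the 2 groups, 0.00732 and 0.0182 without media replicate 1 or 4, 0.0788 without lactate replicate 1 and −0.0581 without lactate replicate 4. With CPM in place of TPM the Aldoc share of aldolase was 7.34% in media, and the summed level, as a share of counts, was 0.102% in naïve, 1.34% in media and 1.19% in lactate libraries, with media and lactate libraries overlapping. With principal transcript lengths, added after seeing the data, the Aldoc share was 0.411% in naïve, 4.22% in media and 1.38% in lactate libraries. The summed level was then 0.134, 1.78 and 1.45% in naïve, media and lactate libraries, and the Eno3 share of enolase 18.0, 8.46 and 7.75%. With 4 libraries a group and a biological coefficient of variation of 23.5%, a gene that missed the threshold is not shown to be equal in the groups. Over all genes, 3451 were called in lactate against media, 2252 without media replicate 2 and 5461 with an adjusted p of at most 0.05.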
